A study of Homo sapiens with 31 samples.

Results

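The SLC39 genes encode the ZIP transporters, the proteins that carry zinc into the cytosol from outside the cell or out of organelles. Of the 22395 genes measured here, 10 genes of this family are described: SLC39A1, SLC39A4 to SLC39A11 and SLC39A14. They were taken as the probe sets whose annotation names a single gene, that gene being one of the 10, and the brightest such probe set was kept for each gene. The rule used brightness over all 31 arrays and no difference between groups.

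The cells were Caco-2 (HTB-37), a human colorectal adenocarcinoma line that becomes an enterocyte-like layer after confluence, and every group held this one line at passage 29 to 45. They were seeded at 75000 cells per cm2 and grown for 21 days in a microfluidic gut-on-chip perfused at 100 µL/h, or without flow on Transwell inserts. They were then exposed for 6 h on the apical side. In the chip, 4 arrays were from cells given ZnO nanomaterial at 80 µg/mL, 4 from the matching ZnO-control medium without metal, 4 from cells given TiO2 at 100 µg/mL, and 4 from its TiO2-control medium. On Transwell inserts, 4 arrays were from cells given 10 µg/mL ZnO, 4 from ZnO-control medium, 3 from cells given 50 µg/mL TiO2, and 4 from TiO2-control medium. The concentrations differ between the systems because they were modelled to deposit equal doses, and the chip flow was stopped during the 6 h. The labels number the replicates but do not say whether they were separate cultures, so p-values measure the spread between these samples, which may be technical.

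Values are log2 signals after robust multi-array averaging (RMA), so a difference of 1 is a doubling of signal. The levels of different genes were not set against each other, since each probe set binds with its own strength. Array medians lay between 3.24 and 3.33, which serves here as the mark of low signal. Of 13 enterocyte markers, 12 were above the array medians in every chip group and 13 in every Transwell group, the exception being FABP2, the intestinal fatty acid binding protein. Of 9 measured markers of other cell types, 4 or 5 were above the medians in each group, and PTPRC, CD3E, DCN and CHGA were at or below them in all 8 groups. Group means of COL1A1 ran from 5.39 to 6.13 and of CD14 from 5.34 to 6.45. Those of PDGFRB (3.33 to 4.48) and MUC2 (3.74 to 4.01) were nearer to the medians. All 4 were above the medians in all 8 groups, and VWF in both chip control groups. In this single line, a level above the medians therefore does not by itself show a cell type. On the third principal component over all genes, with 4.45% of the variance, replicate 4 of chip TiO2 had -14.03 where the other 3 arrays of its group had 16.72 to 20.13. Replicate 4 of chip TiO2-control had 7.81 on it, where the other 3 had -19.42 to -14.91. Each of these 2 arrays thus lay nearer to the arrays of the other group on that component, and they are given here under the labels they carry. This touches every value of TiO2 against its control in the chip, and the results that change without the 2 arrays are given with and without them. On the second component, with 7.76% of the variance, these 2 arrays had -15.37 and -9.37. The other chip TiO2 and TiO2-control arrays had 4.09 to 11.81 there. On the third component chip ZnO arrays were also spread, at -24.54, 4.27, 25.55 and 23.86 for replicates 1 to 4. Chip ZnO-control arrays ran there from -11.74 to 4.73, so this spread touches ZnO against its control in the chip as well.

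Enterocytes take up dietary zinc through SLC39A4 on the apical membrane, and loss of this gene causes the zinc deficiency disease acrodermatitis enteropathica. Inside the cell, free zinc is held low by metallothioneins, which bind it, and by SLC30 proteins, which move it out of the cytosol. The transcription factor MTF1 senses zinc, binds metal response elements in promoters and turns on metallothionein genes and SLC30A1. In mouse and zebrafish, MTF1 is also known to repress the gene that corresponds to SLC39A10.

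The metal response element has a short core, TGCACNC or TGCGCNC. It was searched on both strands from 250 bases before to 50 bases after each gene start in RefSeq sequences of GRCh38.p14. Of 35116 human promoters 29.6% held at least 1 match, so a match alone is common. At least 2 matches were held by 8.6%, and at least 3 by 2.3%. RefSeq promoters were listed for 8 of the 10 genes, and SLC39A4 and SLC39A14 were not listed. These 8 genes had 14 promoters, and 5 promoters of 5 genes held a match: SLC39A1, SLC39A5, SLC39A6, SLC39A8 and SLC39A10. The stretches around the matches of SLC39A10 and of SLC39A6, its closest relative in the family, are shown beside those of 2 genes that MTF1 is known to activate, because SLC39A10 had the largest difference of the 10 genes with ZnO on Transwell inserts. Each is read along its gene's coding strand, and capitals mark the core.
SLC39A10: ggagaggagaTGCACACggcactcgag
SLC39A6: cccgcggcgcTGCGCGCggcggtaatt
MT2A: cttgccgcgcTGCACTCcaccacgcct
SLC30A1: agaccgggccGAGTGCAgctgccgtgg
The SLC39A10 stretch is chr2:195657249-195657275 on the plus strand, and its core begins at position 34, counted from 1 at the start of the gene. The SLC39A6 stretch is chr18:36129341-36129367 on the minus strand, and its core begins at -17, that is 17 bases before the start. The MT2A stretch is chr16:56608566-56608592 on the plus strand, and its core begins at -8. The SLC30A1 stretch is chr1:211579121-211579147 on the minus strand, and its core lies on the opposite strand at positions from 25. Shown is the match nearest the gene start. The window held 8 matches for MT2A and 2 for SLC30A1, against 1 for SLC39A6. SLC39A10 had 1 match in the promoter shown and 0 in its other promoter. A match is a run of letters and says nothing of binding in these cells.

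**Figure D1:**
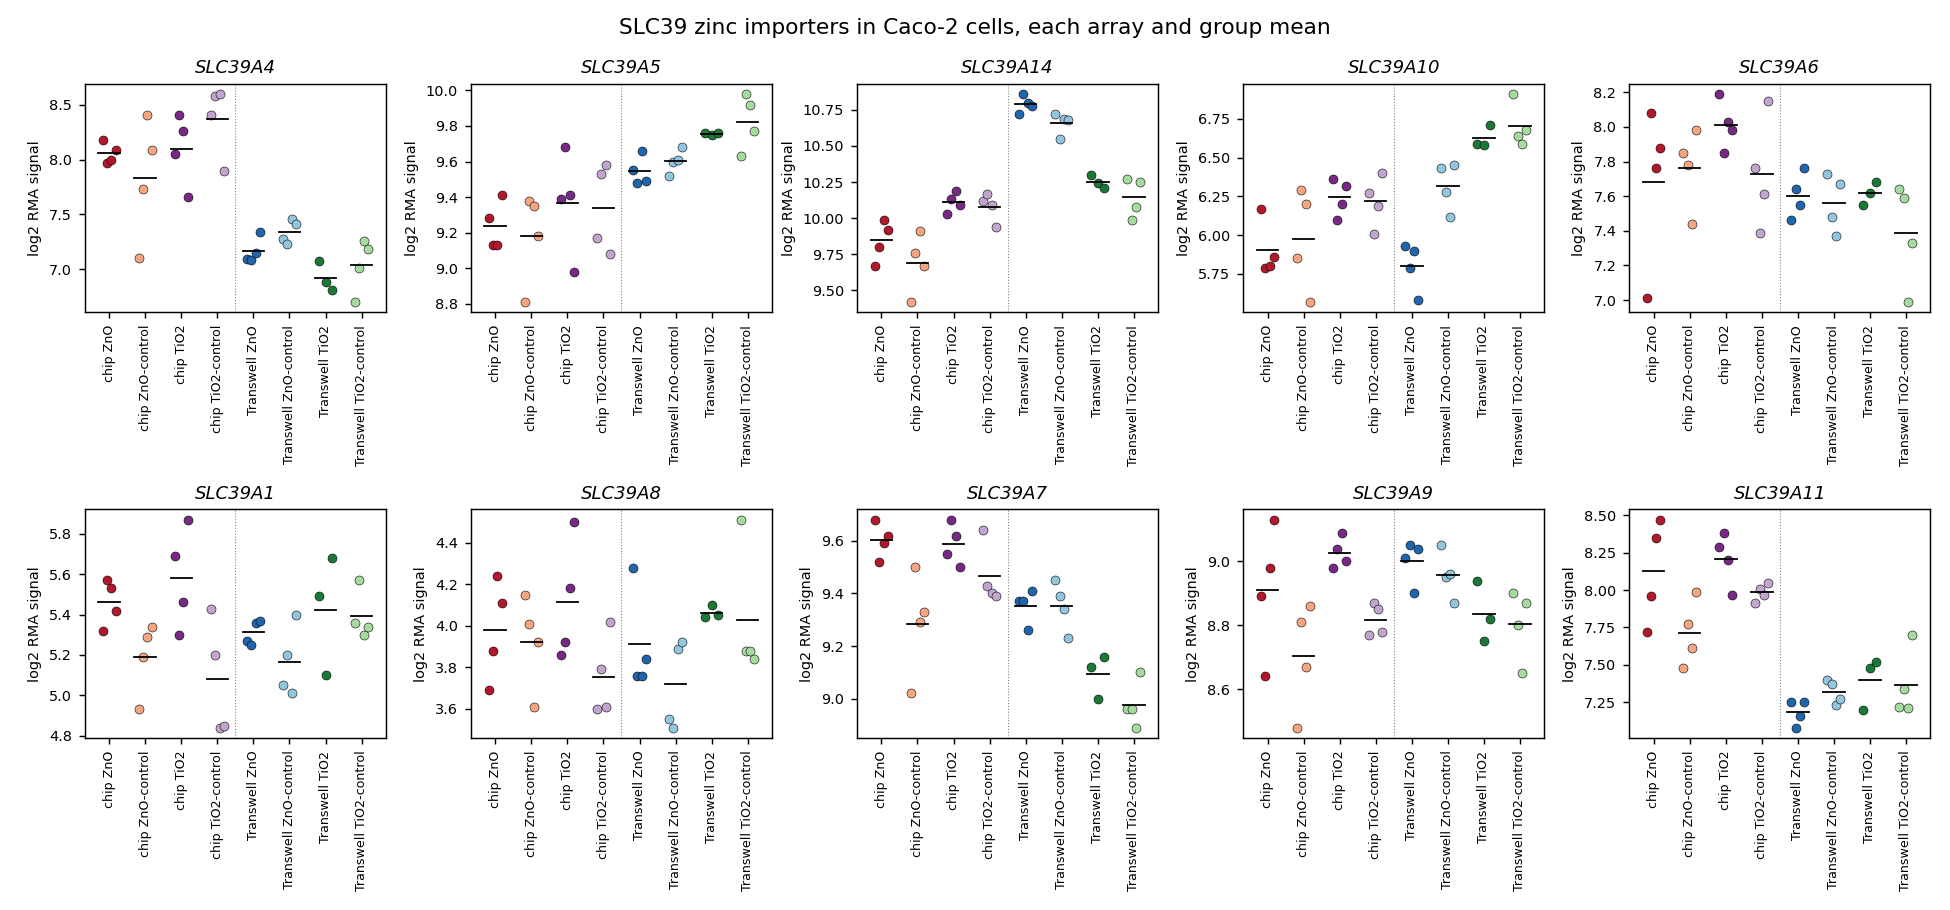
Log2 RMA signal of each of the 10 genes in every array (points) with the group mean (line), with the 8 groups on the x axis, the 4 chip groups left of the dotted line and the 4 Transwell groups right of it. SLC39A4 and SLC39A11 sit higher in the chip, SLC39A5 lower, and SLC39A14 is highest in both ZnO-set groups on Transwell inserts.

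SLC39A4, the apical importer, was the member with the widest range of group means, 1.45 log2 units. In TiO2-control medium SLC39A4 had 8.41, 8.58, 8.60 and 7.90 in chip cells, against 6.70, 7.01, 7.26 and 7.18 in Transwell cells. Every chip array was above every Transwell array. The difference was 1.33 ± 0.20 log2 units (SE), a 2.52-fold higher signal in the chip (adjusted p = 7.66e-06, limma with Benjamini-Hochberg adjustment over all 22395 genes, as throughout). After TiO2, SLC39A4 had 8.05, 8.41, 8.26 and 7.66 in chip cells, against 7.07, 6.88 and 6.81 in Transwell cells, a difference of 1.18 ± 0.21 (adjusted p = 0.000155). After ZnO it had 8.18, 7.97, 8.0 and 8.09 in chip cells, against 7.09, 7.08, 7.15 and 7.34 in Transwell cells, a difference of 0.89 ± 0.20 (adjusted p = 0.00065). The groups did not overlap in either comparison.

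In ZnO-control medium the chip arrays were spread more widely. SLC39A4 had 7.10, 7.73, 8.41 and 8.09 in chip cells, against 7.27, 7.23, 7.46 and 7.41 in Transwell cells. One chip array, replicate 1, lay below all 4 Transwell arrays and the other 3 above them. The difference of 0.49 ± 0.20 did not pass (adjusted p = 0.0632). Without chip ZnO-control replicate 1 it was 0.73 (adjusted p = 0.00213), and without replicate 3 of the same group it was 0.30 (adjusted p = 0.298). It passed under 4 other alternatives, at an adjusted p of 0.0347 to 0.0487, and did not with only the groups compared (adjusted p = 0.181). That array had the lowest value of the 16 chip arrays for 6 of the 10 members. Over the whole series 15 of the 16 chip arrays had more SLC39A4 signal than any of the 15 Transwell arrays. From high to low, the SLC39A4 means ran chip TiO2-control, chip TiO2, chip ZnO, chip ZnO-control, Transwell ZnO-control, Transwell ZnO, Transwell TiO2-control and Transwell TiO2. Of neighbours in that order, only Transwell ZnO-control and Transwell ZnO were apart by more than the larger SD of the pair, by 0.18 against 0.12.

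SLC39A5 and SLC39A14 carry zinc at other sites of the enterocyte. SLC39A5 is a basolateral transporter of enterocytes and pancreatic acinar cells in mice, and SLC39A14 moves zinc, manganese and iron not bound to transferrin. SLC39A5 was lower in the chip in both control media. In TiO2-control medium it had 9.17, 9.53, 9.58 and 9.08 in chip cells, against 9.63, 9.98, 9.92 and 9.77 in Transwell cells, a difference of -0.48 ± 0.14 (adjusted p = 0.00929). In ZnO-control medium it had 8.81, 9.38, 9.35 and 9.18 in chip cells, against 9.52, 9.60, 9.61 and 9.68 in Transwell cells, a difference of -0.42 ± 0.14 (adjusted p = 0.0194). All 8 chip control arrays lay below the Transwell arrays of the same medium. The second call was lost without chip ZnO-control replicate 1 (-0.30, adjusted p = 0.116) and without Transwell ZnO-control replicate 4 (-0.40, adjusted p = 0.0532). After TiO2 the SLC39A5 difference was -0.39 ± 0.15 (adjusted p = 0.0652), and it was -0.50 without chip TiO2 replicate 2 (adjusted p = 0.0215) and -0.26 without chip TiO2 replicate 4 (adjusted p = 0.24). After ZnO it was -0.31 ± 0.14 (adjusted p = 0.0948). Of the 16 chip arrays 13 had less SLC39A5 signal than any Transwell array.

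SLC39A14 was lower in the chip in the ZnO set and did not pass in the TiO2 set. In ZnO-control medium it had 9.42, 9.76, 9.91 and 9.67 in chip cells, against 10.72, 10.55, 10.69 and 10.68 in Transwell cells. The difference was -0.97 ± 0.10, or a Transwell signal 1.96 times that of the chip (adjusted p = 1.11e-08). After ZnO, SLC39A14 had 9.67, 9.80, 9.99 and 9.92 in chip cells, against 10.72, 10.86, 10.80 and 10.78 in Transwell cells, a difference of -0.94 ± 0.10 (adjusted p = 1.48e-08). No chip array came within the Transwell range in either. In TiO2-control medium it had 10.12, 10.17, 10.09 and 9.94 in chip cells, against 10.27, 9.99, 10.08 and 10.25 in Transwell cells. These groups overlapped, and the difference of -0.07 ± 0.10 did not pass (adjusted p = 0.712; 95% interval -0.27 to 0.13). After TiO2 it was -0.14 ± 0.11 (adjusted p = 0.434), although the chip arrays, at 10.03 to 10.19, were all below the Transwell arrays, at 10.21 to 10.30.

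SLC39A10 and SLC39A6 are close relatives that act at the plasma membrane and can form a joint complex. SLC39A10 was lower in the chip in TiO2-control medium, with 6.27, 6.01, 6.19 and 6.40 in chip cells, against 6.91, 6.64, 6.59 and 6.68 in Transwell cells. The groups were apart, and the difference was -0.49 ± 0.13 (adjusted p = 0.00703). In ZnO-control medium SLC39A10 had 5.85, 6.29, 6.20 and 5.57 in chip cells, against 6.43, 6.28, 6.12 and 6.45 in Transwell cells. The groups overlapped there, and the difference of -0.34 ± 0.13 did not pass (adjusted p = 0.0575). It passed without chip ZnO-control replicate 2 (-0.45, adjusted p = 0.0156), without chip ZnO-control replicate 3 (-0.42, adjusted p = 0.0286) and without Transwell ZnO-control replicate 3 (-0.41, adjusted p = 0.0356). It was -0.20 without chip ZnO-control replicate 4 (adjusted p = 0.296). After TiO2 it was -0.38 ± 0.14 (adjusted p = 0.0661), and after ZnO 0.11 ± 0.13 (adjusted p = 0.64).

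SLC39A6 spread widely and passed in none of the comparisons of chip with Transwell. Its chip values ran from 7.01 to 8.19 with a median of 7.85, and its Transwell values from 6.99 to 7.76 with a median of 7.59. The largest of its 4 differences by medium or exposure was 0.40 ± 0.20 after TiO2 (adjusted p = 0.177), where it had 8.19, 7.85, 8.03 and 7.98 in chip cells, against 7.55, 7.62 and 7.68 in Transwell cells. SLC39A1, a plasma membrane importer found in most tissues, ranged from 4.84 to 5.87 in the chip and from 5.01 to 5.68 on Transwell inserts. Its difference in TiO2-control medium was -0.31 ± 0.14 (adjusted p = 0.124) and became -0.43 without chip TiO2-control replicate 1 (adjusted p = 0.0343) and -0.23 without its replicate 4 (adjusted p = 0.314). SLC39A8, which carries zinc, manganese and cadmium, was dim. Its lowest array was 0.22 above the median of that array, and it ranged from 3.60 to 4.50 in the chip and from 3.51 to 4.51 on Transwell inserts. A lack of difference in SLC39A8 is therefore limited by its low signal.

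The remaining 3 members work mainly on internal membranes. SLC39A7 releases zinc from the endoplasmic reticulum, SLC39A9 is found in the Golgi, and SLC39A11 has been placed in the nucleus and the Golgi in mice. SLC39A11 was higher in the chip in all 4 comparisons. After ZnO it had 7.72, 7.96, 8.35 and 8.47 in chip cells, against 7.25, 7.08, 7.16 and 7.25 in Transwell cells, a difference of 0.94 ± 0.14 (adjusted p = 4.53e-06). After TiO2 it had 8.29, 8.38, 8.20 and 7.97 in chip cells, against 7.20, 7.48 and 7.52 in Transwell cells, a difference of 0.81 ± 0.15 (adjusted p = 0.000231). In TiO2-control medium it had 7.91, 8.01, 7.97 and 8.05 in chip cells, against 7.22, 7.34, 7.21 and 7.70 in Transwell cells, a difference of 0.62 ± 0.14 (adjusted p = 0.00136). The groups were apart in all 3. In ZnO-control medium they were apart as well, at 7.48 to 7.99 in chip cells and 7.23 to 7.40 in Transwell cells, with a smaller difference of 0.39 ± 0.14 (adjusted p = 0.0342). That last call was lost without any one of 5 arrays: 0.30 without chip ZnO-control replicate 4 (adjusted p = 0.146), 0.38 without its replicate 2 (adjusted p = 0.076), and 0.41, 0.37 and 0.38 without Transwell ZnO-control replicates 2, 3 and 4 (adjusted p = 0.0504, 0.0865 and 0.0744). Of the 16 chip arrays 14 had more SLC39A11 signal than any Transwell array.

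SLC39A7 was higher in the chip in the TiO2 set. In TiO2-control medium it had 9.64, 9.43, 9.40 and 9.39 in chip cells, against 8.96, 8.96, 8.89 and 9.10 in Transwell cells, a difference of 0.49 ± 0.09 (adjusted p = 0.000255). After TiO2 it had 9.55, 9.68, 9.62 and 9.50 in chip cells, against 9.12, 9.0 and 9.16 in Transwell cells, a difference of 0.49 ± 0.10 (adjusted p = 0.000794). Chip and Transwell arrays were apart in both. In ZnO-control medium SLC39A7 had 9.02, 9.50, 9.29 and 9.33 in chip cells, against 9.45, 9.39, 9.34 and 9.23 in Transwell cells, and the difference of -0.07 ± 0.09 did not pass (adjusted p = 0.697). After ZnO it was 0.25 ± 0.09 (adjusted p = 0.0449), a call that was lost in 7 of the 8 fits that each left out 1 array, with differences of 0.22 to 0.28 and an adjusted p of up to 0.126. It was also lost with only the groups compared (adjusted p = 0.11) and after renewed quantile normalisation (adjusted p = 0.0632) or median centring (adjusted p = 0.0529). SLC39A9 had the smallest range of group means, 0.32, and passed in no comparison of the systems. Its nearest was -0.25 ± 0.10 in ZnO-control medium (adjusted p = 0.0605), which became -0.30 without chip ZnO-control replicate 4 (adjusted p = 0.0355) and -0.18 without its replicate 1 (adjusted p = 0.241).

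By count, 5 of the 10 members passed between chip and Transwell in TiO2-control medium, 3 higher and 2 lower, where 22.9% of all genes passed. In ZnO-control medium 3 passed, 1 higher and 2 lower, against 27.2% of all genes. After ZnO 4 passed, 3 higher and 1 lower, against 29.8% of all genes, and after TiO2 3 passed, against 18.2%, all 3 of them higher, against 7.92% of all genes called higher. As the mean over both control media, 6 members passed where 33.5% of all genes did: SLC39A4 (0.91 ± 0.14), SLC39A11 (0.51 ± 0.10) and SLC39A7 (0.21 ± 0.07) were higher in the chip, and SLC39A14 (-0.52 ± 0.07), SLC39A5 (-0.45 ± 0.10) and SLC39A10 (-0.42 ± 0.09) were lower. The SLC39A7 call was lost with only the groups compared (adjusted p = 0.0504). The median difference of the members over both media was -0.07, and that of all genes 0.00. Chip and Transwell groups did not overlap for 5 members in TiO2-control medium (23.3% of all genes), 4 in ZnO-control medium (28.3%), 5 after ZnO (29.4%) and 8 after TiO2 (27.6%).

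**Figure D2:**
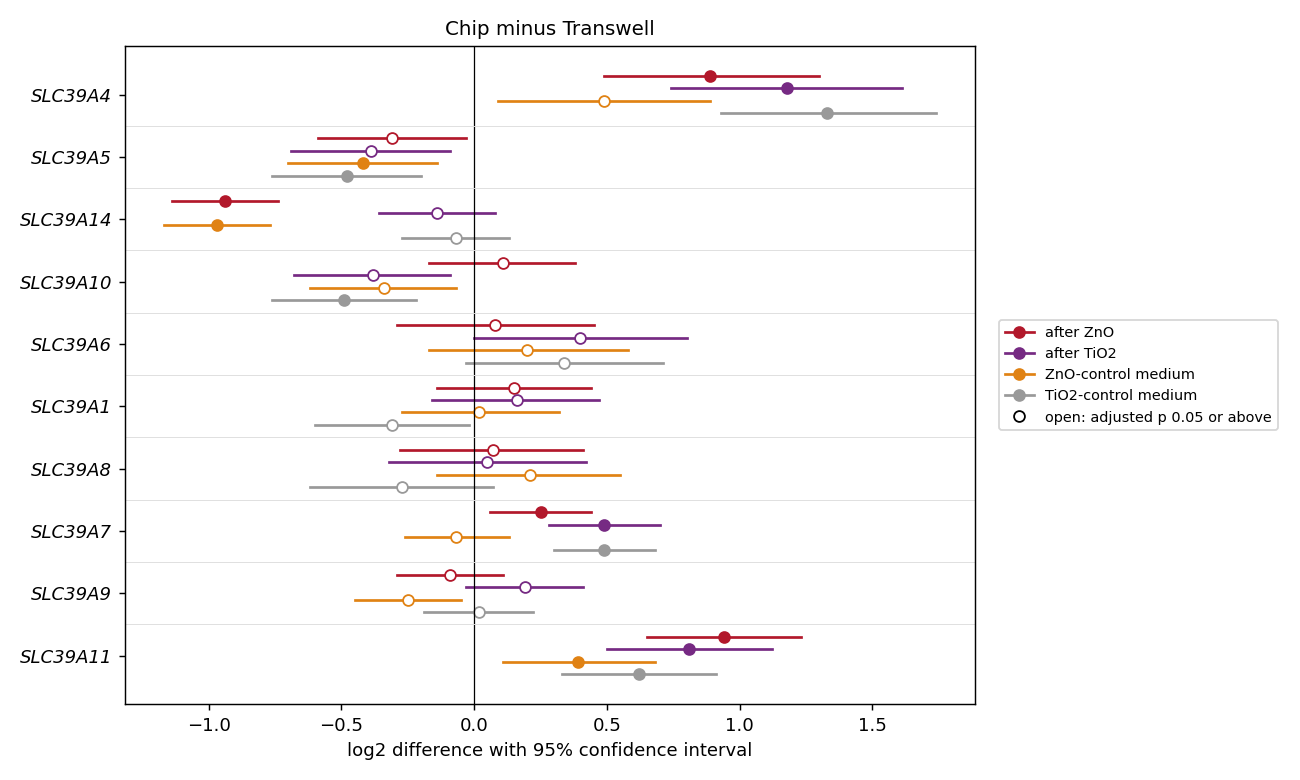
Chip minus Transwell difference (log2, x axis) of each gene with its 95% confidence interval, after ZnO, after TiO2 and in each control medium; filled points passed an adjusted p of 0.05. SLC39A4 and SLC39A11 lie right of 0 in all 4 comparisons, and SLC39A14 lies near -1 in the ZnO set and near 0 in the TiO2 set.

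The enterocyte markers moved between the systems as well. Over both control media 1 of 13 was higher in the chip and 8 were lower, where 33.5% of all genes passed. The differences ran from -4.25 to 0.96. FABP2 averaged 2.05 and 2.20 in chip ZnO-control and TiO2-control cells, against 7.05 and 5.70 in Transwell cells. Their medians were 8.73 and 9.13 in chip ZnO-control and TiO2-control cells, against 9.88 and 9.43 in Transwell cells. Of the 9 markers of other cell types 0 were higher and 2 lower over both media, against the same 33.5% of all genes. The part of these shifts in the results on zinc transporters was not tested. In such bulk samples, fewer cells of a kind and less RNA per cell cannot be told apart.

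The members also varied more among chip replicates. The pooled SD within groups was larger in the chip than on Transwell inserts for all 10 members, by 1.01 times for SLC39A8 to 2.44 times for SLC39A5, with a median of 1.52. Over all genes the median ratio was 1.3 and 74.3% had a larger SD in the chip. SLC39A4, at an SD of 0.37 in chip groups and 0.16 in Transwell groups, had a ratio of 2.22.

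The media without metal differed from each other on Transwell inserts. SLC39A14 had 10.72, 10.55, 10.69 and 10.68 in Transwell ZnO-control cells, against 10.27, 9.99, 10.08 and 10.25 in Transwell TiO2-control cells, with no overlap. The difference was 0.51 ± 0.10, a 1.43-fold higher signal (adjusted p = 0.00169). SLC39A7 had 9.45, 9.39, 9.34 and 9.23 in Transwell ZnO-control cells, against 8.96, 8.96, 8.89 and 9.10 in Transwell TiO2-control cells, a difference of 0.37 ± 0.09 (adjusted p = 0.0142). These 2 of 10 members passed, where 6.64% of all genes did. The SLC39A7 call was lost without Transwell TiO2-control replicate 3 (0.35, adjusted p = 0.0527) and without Transwell ZnO-control replicate 1 (0.34, adjusted p = 0.058). SLC39A10 was lower in ZnO-control medium by -0.39 ± 0.13 and did not pass (adjusted p = 0.0812). It passed with array weights (-0.41, adjusted p = 0.0139) and among brighter genes only (-0.39, adjusted p = 0.0377). The other 7 members had differences between -0.31 for SLC39A8 and 0.30 for SLC39A4, with SLC39A11 at -0.05.

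In the chip 0 members passed between the media, against 0.058% of all genes, and 2 had an unadjusted p below 0.05, against 9.69%. SLC39A14 had 9.42, 9.76, 9.91 and 9.67 in chip ZnO-control cells, against 10.12, 10.17, 10.09 and 9.94 in chip TiO2-control cells, a difference of -0.39 ± 0.10 (adjusted p = 0.124). The sign was opposite to that on Transwell inserts. Without replicate 4 of both chip TiO2 groups the difference was -0.43 (adjusted p = 0.0305), and without replicate 4 of chip TiO2-control alone it was -0.43 (adjusted p = 0.0353). Without chip ZnO-control replicate 1 it was -0.30 (adjusted p = 0.382). SLC39A4 differed by -0.54 ± 0.20 between the media in the chip (adjusted p = 0.351). That value was -0.30 without chip ZnO-control replicate 1 (adjusted p = 0.697), -0.73 without its replicate 3 (adjusted p = 0.101) and -0.70 without replicate 4 of both chip TiO2 groups (adjusted p = 0.0551).

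The test of the difference itself, chip minus Transwell in ZnO-control medium less that in TiO2-control medium, passed for 2 members, SLC39A14 at -0.90 ± 0.14 (adjusted p = 0.000496) and SLC39A7 at -0.56 ± 0.13 (adjusted p = 0.0217). Of all genes 2.74% passed. The SLC39A7 call was lost with only the groups compared (-0.56, adjusted p = 0.0853), without chip ZnO-control replicate 1 (-0.47, adjusted p = 0.0505) and without Transwell ZnO-control replicate 1 (-0.52, adjusted p = 0.0555). SLC39A4 reached -0.84 ± 0.28 (adjusted p = 0.0976), which was -1.0 without chip TiO2-control replicate 4 (adjusted p = 0.0386), -1.03 without chip ZnO-control replicate 3 (adjusted p = 0.0326) and -0.60 without chip ZnO-control replicate 1 (adjusted p = 0.204). The labels name no processing batch, so a control medium and any batch shared by its material set cannot be told apart.

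ZnO exposure changed no member past the threshold in either system. In the chip 0 of 10 passed, where 0.272% of all genes did (61 genes, and 9 to 144 when 1 array was left out), and 3 members had an unadjusted p below 0.05, against 9.42% of all genes. These were SLC39A7, SLC39A11 and SLC39A9, and SLC39A9 was below 0.05 with TiO2 in the chip as well. SLC39A7 had 9.68, 9.52, 9.59 and 9.62 in chip ZnO cells, against 9.02, 9.50, 9.29 and 9.33 in chip ZnO-control cells, a difference of 0.32 ± 0.09 (adjusted p = 0.186). It was 0.23 without chip ZnO-control replicate 1 (adjusted p = 0.461) and 0.39 without its replicate 2 (adjusted p = 0.0902). The exposed arrays were all above the control arrays, the single case among the members in that comparison (3.59% of all genes). SLC39A11 had 7.72, 7.96, 8.35 and 8.47 in chip ZnO cells, against 7.48, 7.77, 7.61 and 7.99 in chip ZnO-control cells, a difference of 0.42 ± 0.14 with overlap (adjusted p = 0.272). That difference was 0.30 without chip ZnO replicate 4 (adjusted p = 0.555) and 0.55 without its replicate 1 (adjusted p = 0.0755). SLC39A9 differed by 0.21 ± 0.10 (adjusted p = 0.518), and by 0.13 without chip ZnO-control replicate 1 (adjusted p = 0.781) or without chip ZnO replicate 4 (adjusted p = 0.778). SLC39A4 differed by 0.23 ± 0.20 in the chip, with a 95% interval of -0.17 to 0.63, and SLC39A14 by 0.16 ± 0.10. Over the 10 members the 95% intervals in the chip reached from -0.45 to 0.70. They rest on a spread shared by all 8 groups, while the SLC39A4 SD was 0.37 in chip and 0.16 in Transwell groups. The intervals may thus be too narrow for the chip. A change as large as the 0.79 of SLC30A1 below is therefore not excluded for every member.

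On Transwell inserts SLC39A10 had the largest difference with ZnO among the members, and 0 of 10 passed, with 1 at an unadjusted p below 0.05. It had 5.93, 5.79, 5.90 and 5.58 in Transwell ZnO cells, against 6.43, 6.28, 6.12 and 6.45 in Transwell ZnO-control cells. The 4 exposed arrays were all below the 4 control arrays. The difference was -0.52 ± 0.13 (95% interval -0.79 to -0.24), a control signal 1.43 times that of exposed cells. Its unadjusted p of 0.000583 was the 14th smallest of 22395 genes, but the adjusted p was 0.933 and 0% of all genes passed in this comparison (3.73% at an unadjusted p below 0.05). Over the alternatives the difference stayed between -0.59 and -0.45, with adjusted p from 0.173 to 1. SLC39A14 was also apart, with 10.72, 10.86, 10.80 and 10.78 in Transwell ZnO cells, against 10.72, 10.55, 10.69 and 10.68 in Transwell ZnO-control cells, where the lowest exposed array and the highest control array agree to 2 decimals. Its difference was 0.13 ± 0.10 (adjusted p = 1.00). These 2 of 10 were the members whose groups did not overlap, against 3.97% of all genes. The other 8 members had differences between -0.18 for SLC39A4 and 0.20 for SLC39A8, with SLC39A7 at 0.00.

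**Figure D3:**
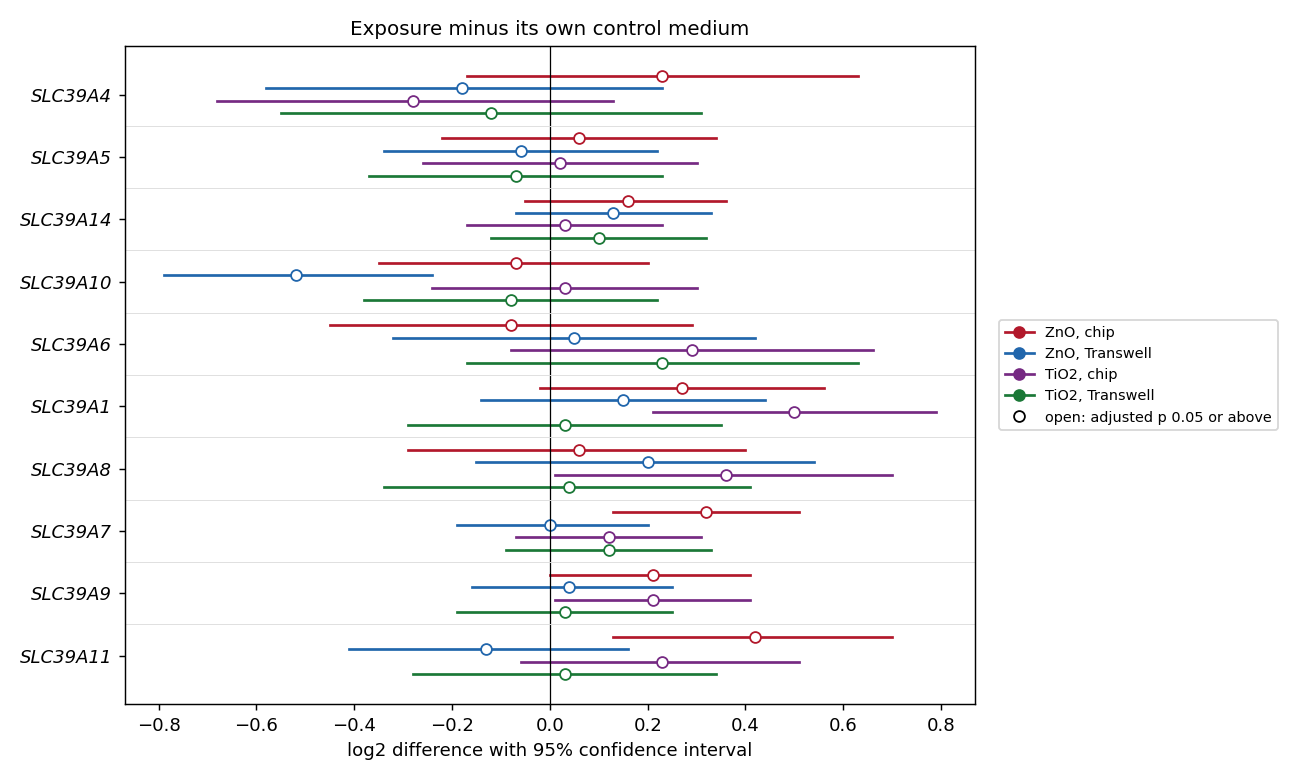
Exposure minus its own control medium (log2 difference, x axis) of each gene with its 95% confidence interval, for ZnO and TiO2 in each system; open points did not pass an adjusted p of 0.05, which holds for all of them. The interval of SLC39A10 with ZnO on Transwell inserts, -0.79 to -0.24, lies left of 0, and those of SLC39A7 and SLC39A11 with ZnO in the chip lie right of it.

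The ZnO responses of chip and Transwell cells were compared directly, at applied concentrations that differed between the systems. None of the 10 differences of responses passed, where 0.00447% of all genes did, and 3 had an unadjusted p below 0.05, against 6.01%. SLC39A11 had a response of 0.42 in the chip and -0.13 on Transwell inserts, a difference of 0.55 ± 0.20 (adjusted p = 0.782). SLC39A10 had -0.07 in the chip and -0.52 on Transwell inserts, a difference of 0.45 ± 0.19 (adjusted p = 0.827). SLC39A7 had 0.32 in the chip and 0.00 on Transwell inserts, a difference of 0.32 ± 0.13 (adjusted p = 0.827). The separate results in each system therefore do not show that the systems differ.

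TiO2 exposure also left all 10 members short of the threshold in both systems, as it did all genes (0% in each comparison). In the chip the count of all genes rested on the 2 arrays that lay nearer to the other group. It was 73 without replicate 4 of both chip TiO2 groups, 23 without chip TiO2 replicate 4 and 11 without chip TiO2-control replicate 4, and 0 members passed in each of these. With all arrays 3 members had an unadjusted p below 0.05, against 8.92% of all genes. SLC39A1 had 5.69, 5.30, 5.46 and 5.87 in chip TiO2 cells, against 5.43, 5.20, 4.84 and 4.85 in chip TiO2-control cells, a difference of 0.50 ± 0.14 with overlap (adjusted p = 0.323). Without replicate 4 of both groups it was 0.32 (adjusted p = 0.362). SLC39A9 had 8.98, 9.04, 9.09 and 9.0 in chip TiO2 cells, against 8.77, 8.87, 8.85 and 8.78 in chip TiO2-control cells, a difference of 0.21 ± 0.10 (adjusted p = 0.551). Its groups did not overlap, the 1 such member in this comparison, where 3.34% of all genes had groups apart. SLC39A8 differed by 0.36 ± 0.17 (adjusted p = 0.546), and by 0.23 without chip TiO2 replicate 4 (adjusted p = 0.654). On Transwell inserts 0 members had an unadjusted p below 0.05 (2.64% of all genes), 0 had groups apart (5.53% of all genes), and the differences lay between -0.12 for SLC39A4 and 0.23 for SLC39A6. The TiO2 responses differed between the systems for 0 of 10 members (0% of all genes), and 1 had an unadjusted p below 0.05 (5.43% of all genes), SLC39A1 at 0.47 ± 0.21 (adjusted p = 0.898). That value was 0.29 without replicate 4 of both chip TiO2 groups (adjusted p = 0.716) and 0.31 without Transwell TiO2 replicate 2 (adjusted p = 1.00). In the chip, the ZnO response less the TiO2 response also passed for 0 members (0.00447% of all genes), with 0 at an unadjusted p below 0.05 (5.5% of all genes). SLC39A4 was highest there at 0.50 ± 0.28 (adjusted p = 0.911).

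The proteins that lower cytosolic zinc gave a background for these levels. The 10 SLC30 genes and MTF1 numbered 11, all measured. After ZnO in the chip 2 of the 11 were higher and 0 lower, where 0.272% of all genes passed. SLC30A2, which loads zinc into vesicles, averaged 8.57 ± 0.56 in chip ZnO cells and 7.06 ± 0.79 in chip ZnO-control cells (SD, n = 4 each), a difference of 1.52 ± 0.30 (adjusted p = 0.0208). SLC30A1, the zinc exporter of the plasma membrane, averaged 11.13 ± 0.30 in chip ZnO cells and 10.34 ± 0.42 in chip ZnO-control cells, a difference of 0.79 ± 0.17 (adjusted p = 0.0381). The median difference of the list was 0.03 and that of all genes 0.00. With only the 2 groups compared in the fit 0 of all genes passed after ZnO in the chip, so these calls and those of the metallothioneins in that comparison were lost there. On Transwell inserts 0 of the 11 passed after ZnO (0% of all genes), and 2 had an unadjusted p below 0.05 (3.73% of all genes).

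Of 11 metallothioneins 10 were measured. Their sequences are nearly identical, so a probe set can bind more than 1 of them and single values are uncertain. After ZnO in the chip 4 of 10 were higher (0.272% of all genes passed), among them MT1B (5.17 ± 0.54, adjusted p = 6.76e-06), MT1M (4.25 ± 0.65, adjusted p = 0.00272) and MT1G (2.12 ± 0.43, adjusted p = 0.0269). The chip ZnO arrays ran from 7.90 to 9.35 for MT1B and from 7.38 to 10.15 for MT1M, against 2.54 to 5.73 and 3.20 to 7.20 in chip ZnO-control cells. Some control arrays were thus at or below the array medians, and the size of these differences is uncertain. The list had a median difference of 1.45. On Transwell inserts 0 of 10 passed after ZnO (0% of all genes) and 3 had an unadjusted p below 0.05 (3.73% of all genes). The median difference there was 0.42.

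Between the control media on Transwell inserts 4 of 10 metallothioneins were higher in ZnO-control medium, where 6.64% of all genes passed. MT1X averaged 10.93 ± 0.17 in Transwell ZnO-control cells and 8.66 ± 0.10 in Transwell TiO2-control cells, a difference of 2.27 ± 0.17 (adjusted p = 2.55e-09). MT2A averaged 7.58 ± 0.18 in Transwell ZnO-control cells and 6.40 ± 0.17 in Transwell TiO2-control cells, a difference of 1.19 ± 0.15 (adjusted p = 1.58e-05). MT1G differed by 2.59 ± 0.43 (adjusted p = 0.000359). SLC30A2 was the 1 of 11 in the exporter list that passed there, at 1.35 ± 0.30 (adjusted p = 0.00514). In the chip 0 of 10 metallothioneins and 0 of 11 in the exporter list passed between the media (0.058% of all genes), with 2 and 0 at an unadjusted p below 0.05 (9.69% of all genes). The difference between the systems in this contrast of control media passed for 3 metallothioneins, all lower, where 2.74% of all genes passed. MT1X was among them at -2.17 ± 0.24 (adjusted p = 1.96e-05). Here too, a control medium and any batch shared by its material set cannot be told apart.

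Over both control media, 6 of 10 metallothioneins were higher in the chip and 0 lower, where 33.5% of all genes passed, among them MT1G (3.74 ± 0.30), MT1X (1.57 ± 0.12) and MT2A (1.32 ± 0.11). Of the 11 in the exporter list 2 were higher and 3 lower, among them SLC30A1 (0.80 ± 0.12, adjusted p = 4.31e-06), SLC30A6 of the early secretory pathway (-0.41 ± 0.08, adjusted p = 9.18e-05) and SLC30A10, best known as a manganese exporter (-1.43 ± 0.19, adjusted p = 3.95e-07). SLC30A10 averaged 2.21 and 2.54 in chip ZnO-control and TiO2-control cells, which is below the array medians, against 3.89 and 3.72 in Transwell cells.

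SLC39A10 was set beside the metallothioneins MT1X and MT2A by group. In mice, MTF1 is known to repress the gene that corresponds to SLC39A10 and to turn on metallothionein genes. SLC39A10 was highest in the Transwell TiO2 and TiO2-control cells, at 6.63 ± 0.07 and 6.71 ± 0.14, where MT1X was lowest, at 8.68 ± 0.18 and 8.66 ± 0.10. Both groups were above Transwell ZnO-control cells, at 6.32 ± 0.16, by more than the larger SD. It was lowest in chip ZnO and Transwell ZnO cells, at 5.91 ± 0.18 and 5.80 ± 0.16, where MT1X was at 11.82 ± 0.14 and 11.32 ± 0.09. The chip TiO2 and TiO2-control cells were between, with SLC39A10 at 6.24 ± 0.12 and 6.21 ± 0.16 and MT1X at 10.83 ± 0.25 and 11.31 ± 0.42. Chip ZnO-control cells had SLC39A10 at 5.98 ± 0.33 and MT1X at 11.42 ± 0.35. Their SLC39A10 mean was 0.07 above that of chip ZnO cells, less than either SD, and had the widest SD of the 8 groups. MT2A was likewise lowest in Transwell TiO2 and TiO2-control cells, at 6.00 ± 0.10 and 6.40 ± 0.17, and highest in chip ZnO cells, at 8.71 ± 0.22. The orders were not fully opposite. In Transwell ZnO cells, with the lowest SLC39A10, MT2A was at 8.10 ± 0.07. It was at 8.48 ± 0.28, 8.14 ± 0.13 and 7.89 ± 0.35 in chip ZnO-control, TiO2-control and TiO2 cells. MT1X in Transwell ZnO cells was near that of chip TiO2-control cells. In Transwell ZnO-control cells MT1X was at 10.93 ± 0.17 and MT2A at 7.58 ± 0.18. MT1G, MT1H and MT1E averaged 7.07, 6.04 and 4.05 in Transwell ZnO cells, where SLC39A10 was lowest. These means were below those of all chip groups, of which chip TiO2 was lowest at 7.45, 7.16 and 5.04. MT1M and MT1B averaged 4.32 and 2.44 in Transwell ZnO cells, above chip TiO2 cells at 3.20 and 2.28. Both MT1B values were below the array medians. The other measured metallothioneins were not set beside SLC39A10. The group means are given as a description, with no test of their relation.

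**Figure D4:**
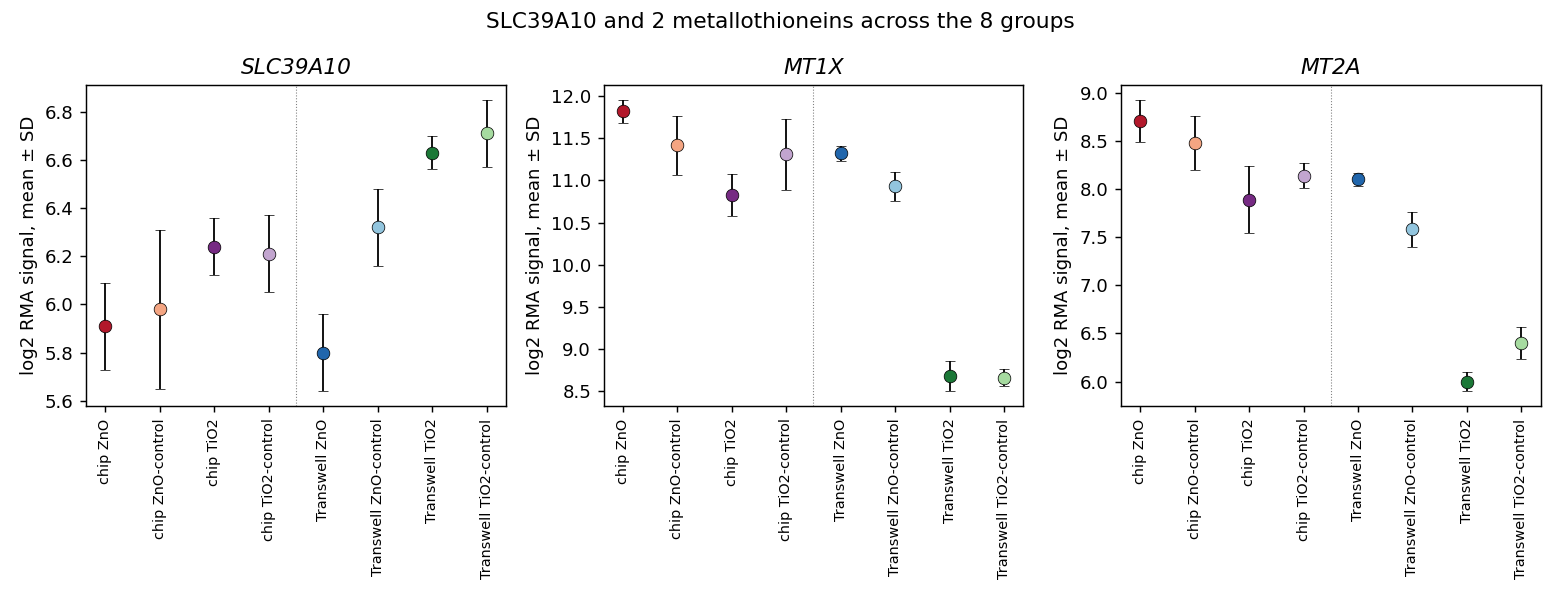
Mean log2 RMA signal ± SD of SLC39A10, MT1X and MT2A (y axes) in the 8 groups (x axis), with 4 arrays a group and 3 for Transwell TiO2. SLC39A10 is highest in the Transwell TiO2 and TiO2-control groups, where MT1X and MT2A are lowest.

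For the 2 members with the widest ranges of group means, SLC39A4 and SLC39A14, the genes most like them over all 31 arrays were sought by Pearson r among 11196 brighter genes. All arrays share the split into chip and Transwell cells, so r is given with its values within each system as a description. The 3 most like SLC39A4 were SERPINE2 (r of 0.909 over all arrays, 0.72 over 16 chip arrays and 0.44 over 15 Transwell arrays), PCK1 (0.905, with 0.65 in the chip and 0.52 on Transwell inserts) and TUFT1 (0.901, with 0.67 in the chip and 0.25 on Transwell inserts). The 3 most like SLC39A14 were PLA2G12B (0.935, with 0.87 in the chip and 0.94 on Transwell inserts), DUSP16 (0.923, with 0.65 and 0.94) and ATP2B1 (0.923, with 0.61 and 0.94). The values of SLC39A4 were lower within each system than over all arrays, and those of SLC39A14 were as high among Transwell arrays as over all arrays. Transwell arrays also share the split into ZnO and TiO2 sets, where SLC39A14 ran from 10.55 to 10.86 and from 9.99 to 10.30. An r among them is therefore not free of the design.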

How the data were processed

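Per the submitters' processing notes, the authors normalised the arrays with RMA, and the deposited values are on the log2 scale. RMA forces 1 distribution on all arrays, so a change shared by most genes would be lost. The RMA version and the array annotation were not given in the sources used here. Per the labels' protocols, 100 ng of total RNA per sample was labelled.

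The 31 arrays carried 53617 probe sets, 0 values were missing and 0 columns were identical. Of these, 23871 named 1 gene, 1842 several and 27904 none. Symbols were updated through gene identifiers with the RefSeq table of GRCh38.p14, and 22569 probe sets matched. The brightest probe set was kept for the 632 genes with several, leaving 22395 genes. SLC39A7 had 6 probe sets with identical values.

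Limma 3.58.1 in R 4.3.3 was fitted with 1 mean per group over all 8 groups (23 residual degrees of freedom). P-values were adjusted by Benjamini-Hochberg over all genes of a comparison, with a threshold of 0.05. Alternatives were an intensity trend or robust prior, array weights, only the groups compared, brighter genes only, the mean of all probe sets of a gene, renewed quantile normalisation, median centring, the replicate number as a block, and leaving out arrays. The steps were tested on simulated data in which a gene had the same spread in every array. Such data cannot show how the wider spread of chip replicates acts on the calls. The rule for named genes was all 10 members in each comparison, with up to 3 genes of smallest p from the 2 other zinc lists; members that did not pass are given in part as a range or a count. Members, lists and markers were chosen with earlier results of these data known. The number of arrays limits the precision.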

Additional observations from a re-analysis of the deposited data

Results flagged for a closer look

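In 3 of 70 groups of 4 arrays 1 array stood far from the others of its group, measured as its gap to the nearest array over the range of the group, and chance alone gives about 1 in 20. SLC39A7 in chip TiO2-control replicate 1 was 9.64, where the other 3 arrays were 9.39 to 9.43. SLC39A8 in Transwell ZnO replicate 1 was 4.28, where the others were 3.76 to 3.84. SLC39A8 in Transwell TiO2-control replicate 1 was 4.51, where the others were 3.84 to 3.88. Chip minus Transwell differed between the control media for SLC39A14, by -0.90, and for SLC39A7, by -0.56, each tested as a difference of differences.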

How the results depend on the processing

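Of 150 differences of members (10 genes in 15 comparisons), 48 had an unadjusted p below 0.05. Their 948 values under the alternatives kept their direction in every case: 893 stayed on the same side of the threshold, 24 calls were lost and 31 gained. Of the other 102, 37 changed sign under at least 1 alternative and have no settled direction, among them SLC39A14 between chip and Transwell in TiO2-control medium. In ZnO-control medium the 3 calls between chip and Transwell became 5 with an intensity trend, 5 with array weights and 6 among brighter genes only, and 1 to 4 when 1 array was left out, with 1 without Transwell ZnO-control replicate 4. After TiO2 the 3 calls became 5 among brighter genes only. Between the media in the chip, the 0 calls became 1, SLC39A14, without replicate 4 of both chip TiO2 groups, and 0 to 1 when 1 array was left out. On Transwell inserts the 2 calls between the media were 1 to 2 when 1 array was left out. SLC39A10 was gained there with array weights (-0.41, adjusted p = 0.0139) and among brighter genes only (-0.39, adjusted p = 0.0377). The difference of the media between the systems had 2 calls, 1 with only the groups compared, and 1 to 3 when 1 array was left out. SLC39A4 was gained in it with array weights (-0.96, adjusted p = 0.0262) and among brighter genes only (-0.84, adjusted p = 0.0498). The causes were not tested. SLC39A6 was gained over both control media after renewed quantile normalisation (0.32, adjusted p = 0.0433) and median centring (0.32, adjusted p = 0.0448). Among brighter genes only, SLC39A10 and SLC39A9 were gained between chip and Transwell in ZnO-control medium (-0.34 and -0.25, adjusted p = 0.0286 and 0.0261) and SLC39A5 and SLC39A10 after TiO2 (-0.39 and -0.38, adjusted p = 0.0323 and 0.0326). SLC39A8 is left out among brighter genes only, because its mean is below the median of all genes.

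The replicate numbers do not pair the samples: the correlations between arrays of the same number ran from -0.232 to 0.131, and were not all above 0.1. With the replicate number as a block, 5 members passed between chip and Transwell in TiO2-control medium, 3 in ZnO-control medium, 6 over both, 3 after TiO2 and 3 after ZnO, where SLC39A7 was lost (0.25, adjusted p = 0.061). The block gave 2 members between the media on Transwell inserts, 2 for the difference of media between the systems, and 0 in each of the other 8 comparisons.

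Dim signal limits SLC39A8, and 3 or 4 arrays a group limit all members. No member was called in the 4 exposure comparisons under any of the alternatives run.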
